A study of Mus musculus with 6 samples.

Results

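Mitosis and spindle genes encode the proteins that carry a cell from the end of DNA replication through chromosome segregation and division. They were followed in B cells purified from the spleens of MRL/lpr mice without TLR9, with or without stimulation through TLR7. The 40 genes were taken by symbol from a list of genes with known functions in mitosis. All 40 were among the 23420 gene symbols in the files, and all 40 lay at or above 1 CPM (the read count of a gene scaled to a common library size) in each of the 6 libraries and passed the filter on low values, as did 11844 genes in all.

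MRL/lpr is a strain that carries the Fas lpr mutation and develops lupus-like disease. All mice were Tlr9-/- with a wild-type TLR7, so the controls carried the TLR9 deficiency too. Per the study's methods they were males, and per the labels 3 mice aged 5 to 7 weeks gave the cells, although the title of the series gives 5 weeks. B cells were enriched by depleting cells positive for CD4 or CD8, Gr-1, CD43 and the myeloid markers CD11b and CD11c, and were cultured for 4 h, either unstimulated (0 µg/ml CL097) or with 5 µg/ml CL097, a small imidazoquinoline that activates TLR7. Each condition had 3 libraries, numbered 1 to 3, and libraries of the same number are called a pair below. The labels do not state that a number marks a mouse, so p-values measure the spread between these libraries, which may in part be technical.

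Entry into mitosis is driven by CDK1 bound to cyclin A or cyclin B. Polo-like and Aurora kinases, kinesin motors and the kinetochore then build the spindle, condensins compact the chromosomes, and the anaphase-promoting complex (APC/C) ends mitosis by marking cyclin B and securin for destruction. Most of these genes are silent in resting lymphocytes and are transcribed together late in the cycle, through the FOXM1, B-MYB and MuvB proteins at a promoter element called the cell cycle genes homology region (CHR) and through NF-Y at CCAAT boxes. In quiescent cells the DREAM complex represses them through the same CHR elements. Resting B cells stimulated in culture need longer than the time used here to reach their first division.

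Of the 40 genes, 10 rose and 2 fell with CL097 at an adjusted p under 0.05 and a log2 fold change beyond 0.5, and 28 were not called. The genes that rose included Cdk1, Ccnb1 (cyclin B1), Birc5 (survivin), Prc1 and the condensin gene Ncaph, and those that fell were Cenpa, the histone H3 variant of centromeres, and Cdc25b, a phosphatase that activates CDK1. Among all 11844 tested genes 24% were called higher and 23.6% lower, so the 25.0% of members called higher was near the background and the 5.0% called lower was below it. The median log2 fold change of the members was 0.49, against 0.00 over all tested genes. The pairs did not agree. In pair 1 the CL097 library was lower than the unstimulated library for 33 of 40 members, in pair 2 for 4 and in pair 3 for 2, with median log2 differences of -0.36, 0.70 and 1.12. Over all tested genes the CL097 library was lower for 49.0%, 50.1% and 50.5% of genes in pairs 1, 2 and 3.

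Put together, 29 of the 40 members (72.5%) were lower after CL097 in pair 1 and higher in both other pairs, a pattern seen in 4.02% of all tested genes. This pattern was defined after the members' values were seen, so the shares are a description. Another 7 members (17.5%) were higher in all 3 pairs, which was true of 39.7% of tested genes. Cenpa and Cdc25b were lower in all 3, against 40% of tested genes. The remaining 2, Cenpe and Smc4, were lower in pairs 1 and 2 and higher in pair 3. The difference was lowest in pair 1 for 39 of 40 members, with Cks2 as the exception, and highest in pair 3 for 38. Of the 11844 tested genes, 3791 had the lowest difference in pair 1 and 3656 the highest in pair 3. The differences of the members ran from -2.12 to 0.77 in pair 1, from -1.31 to 1.57 in pair 2 and from -1.06 to 2.13 in pair 3. Across the 11844 tested genes the differences of pair 1 correlated with those of pairs 2 and 3 at 0.841 and 0.814, and those of pairs 2 and 3 with each other at 0.896 (Pearson's r across genes of the same 6 libraries, which are not independent replicates).

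**Figure D1:**
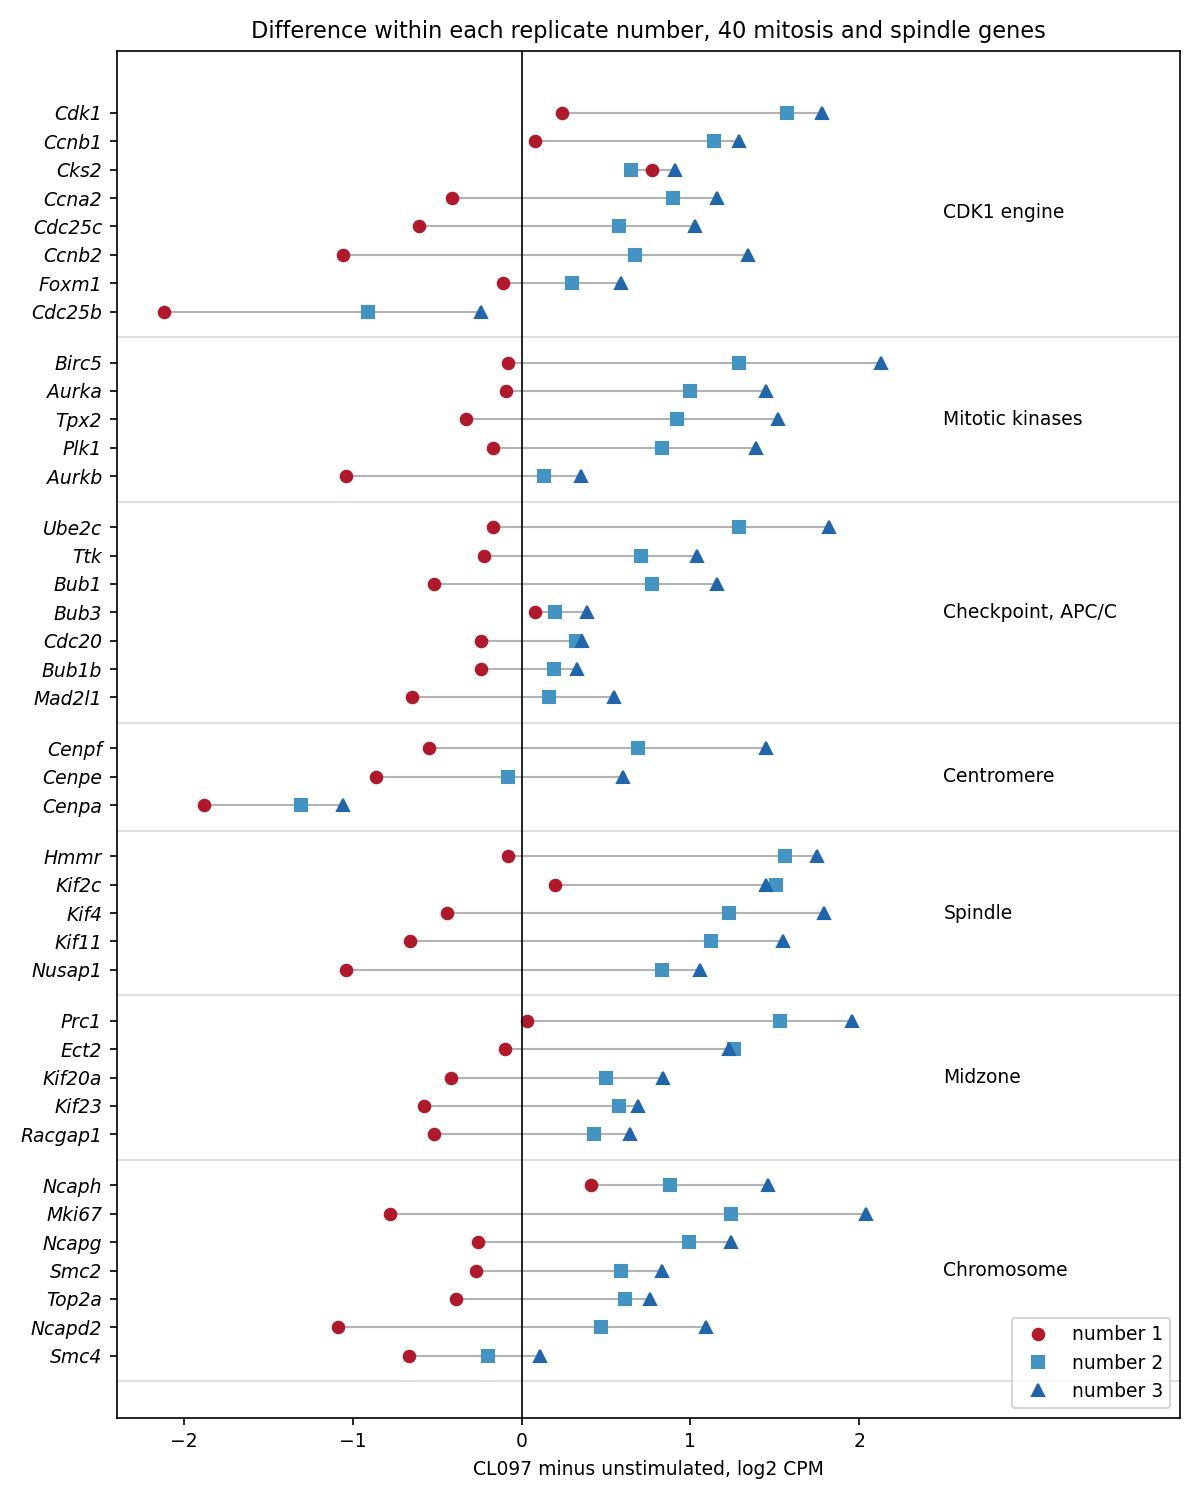
Difference between the CL097 and the unstimulated library of each replicate number in log2 CPM (x axis) for the 40 mitosis and spindle genes (y axis), grouped by role. Number 1 (red circles) lies left of 0 for 33 genes, while numbers 2 and 3 (blue squares and triangles) lie right of 0 for 36 and 38.

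**Figure D2:**
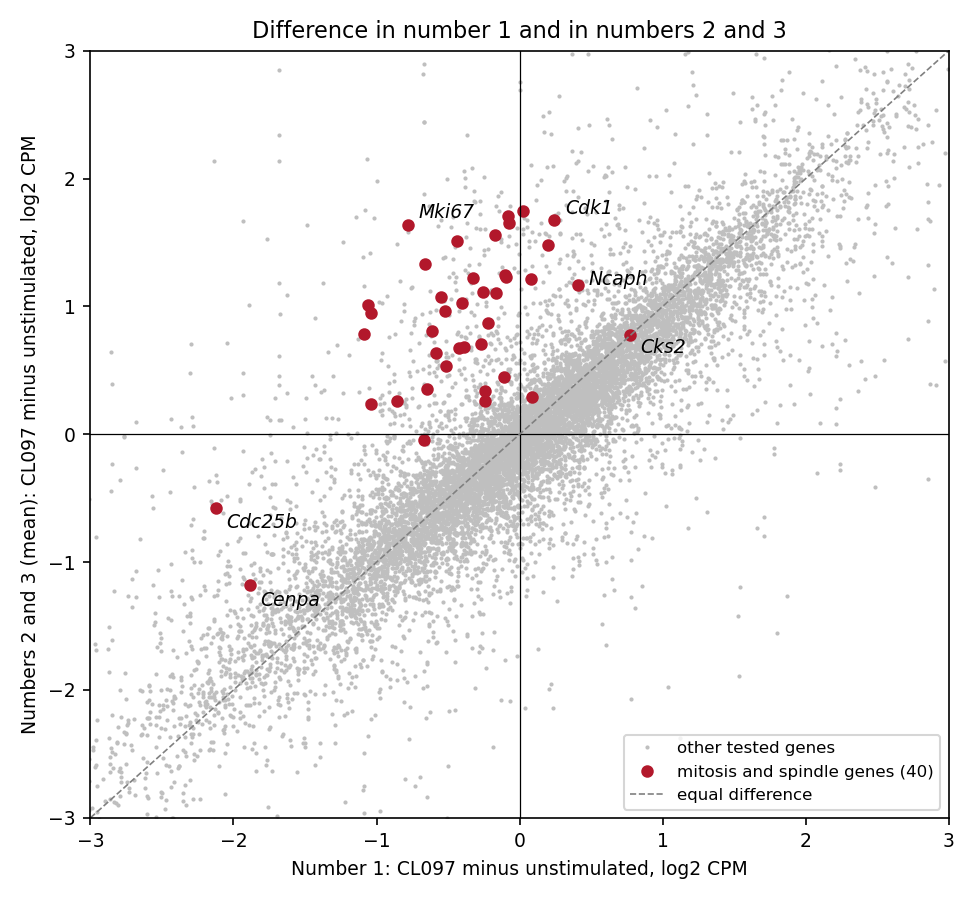
Difference in number 1 (x axis) against the mean difference of numbers 2 and 3 (y axis), both CL097 minus unstimulated in log2 CPM, for all tested genes (grey) and the 40 members (red). Axes end at 3 in either direction, which leaves out 327 tested genes and no member. Most members lie above the dashed line of equal difference in the upper left part of the plot, and Cks2 lies on the line.

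The spread between pairs set the errors. The standard error (SE) of the log2 fold change had a median of 0.26 over the members and 0.15 over all tested genes. With number 1 left out of both conditions it was 0.15 over the members, 30 of the 40 (75.0%) were called higher and 2 lower (5.0%), and the median log2 fold change was 0.96. In that fit 25.3% of all tested genes were called higher and 25.1% lower, and it holds 2 libraries per condition. Number 1 was the pair that differed, so counts without it, here and for the groups and lists below, are a description. With number 2 left out instead, 2 members were called higher and 1 lower (19.3% and 18.5% of tested genes), and with number 3 left out 2 higher and 2 lower (21.6% and 20.4%). All 10 members called higher and both called lower with 6 libraries were among the calls without number 1. A fit that took the number as a block called 11 members higher and 2 lower (25.9% and 25.8% of tested genes). The count of members called higher was 16 without unstimulated replicate 1 and 22 without CL097 replicate 1, but 4 when unstimulated replicate 2, unstimulated replicate 3 or CL097 replicate 3 was left out, and 5 without CL097 replicate 2. Cks2, Ncaph and Cenpa kept their calls in all 17 alternative fits, while Cdk1 and Kif2c kept theirs without any single library but lost them without number 2 (adjusted p = 0.0758 and 0.100) and without number 3 (adjusted p = 0.0543 and 0.0858). Aurka, Birc5, Hmmr, Prc1 and Ect2 lost theirs without any single library of numbers 2 and 3, and Ccnb1 without 3 of those 4 (not CL097 replicate 2).

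Levels in number 1 also stood apart within a condition. The unstimulated library of number 1 had the highest of the 3 unstimulated values for 35 of 40 members, and the CL097 library of number 1 had the lowest of the 3 CL097 values for 37. The CL097 library of number 3 had the highest for 39. Between 2655 and 3108 of 17935 genes had exactly the same deposited value in both libraries of a number, against 347 to 404 in libraries of different numbers. A shift common to the libraries of a number leaves the differences within a pair as they were but alters levels between numbers, so orders between numbers within a condition are given as deposited values only. Whether the values were adjusted per number before deposit is not given in the sources used here. If they were, the SEs and p-values would leave out part of the spread between numbers.

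Genes of the CDK1 engine come first. Counts of calls in this and the other role groups are descriptions of few genes, against 24% of all tested genes called higher and 23.6% lower. Cdk1 (chromosome 10, 69335146 to 69352938, minus strand, GRCm38) encodes the kinase that starts mitosis. Its level was 24.9, 16.0 and 17.6 CPM in unstimulated libraries 1, 2 and 3 and 29.4, 47.6 and 60.5 CPM in CL097 libraries 1, 2 and 3. The groups did not overlap, and all 3 pairs were higher after CL097, pair 1 by the least (log2 0.24, against 1.57 and 1.78). Cdk1 rose 2.30-fold (log2 1.20, SE 0.27, adjusted p = 0.00570). Of all tested genes, 33.4% had CL097 libraries all above the unstimulated ones and 32.4% had them all below. Among the members these counts were 7 and 2, and 31 overlapped.

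Ccnb1 (chromosome 13, 100778650 to 100786570, minus strand), the cyclin that CDK1 needs to enter mitosis, stood at 23.4, 13.3 and 17.0 CPM without and 24.7, 29.3 and 41.6 CPM with CL097. It rose 1.78-fold (log2 0.83, SE 0.25, adjusted p = 0.0200), with a difference of only 0.08 in pair 1. Its relative Ccnb2 (cyclin B2) was not called (log2 0.32, SE 0.40, adjusted p = 0.521). Ccnb2 went from 28.5 to 13.7 CPM in pair 1, from 19.8 to 31.6 in pair 2 and from 17.7 to 44.8 in pair 3, so the CL097 libraries held both the lowest and the highest of its values. Ccna2, cyclin A2, was not called either (log2 0.55, adjusted p = 0.133), with pair differences of -0.41, 0.90 and 1.16.

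Cks2 (chromosome 13, 51645232 to 51650660, plus strand), a small adaptor subunit of CDK complexes, differed from the others in the agreement of its pairs, and its values were singled out for that after they were seen. They were 16.1, 14.8 and 15.4 CPM without and 27.5, 23.4 and 28.8 CPM with CL097. It rose 1.71-fold (log2 0.78, SE 0.12, adjusted p = 0.000925), by 0.77, 0.65 and 0.91 on the log2 scale in the 3 pairs. Without number 1 its log2 fold change was 0.78 as well.

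Cdc25b (chromosome 2, 131186949 to 131198497, plus strand) encodes a phosphatase that removes inhibitory phosphates from CDK1. It fell from 89.8, 99.9 and 84.9 CPM to 20.6, 53.2 and 72.1 CPM (log2 -1.09, SE 0.40, adjusted p = 0.0435). All CL097 values lay below all unstimulated ones, but the size ran from -2.12 in pair 1 to -0.24 in pair 3, and the call was lost in 8 of 17 alternative fits, among them those without CL097 replicate 2 or any 1 of the unstimulated libraries. Without number 1 it was called lower at log2 -0.57 (adjusted p = 0.0124). Cdc25c, a second phosphatase of the family, was the member with the lowest level per kb of exon and stood at 2.28 to 4.49 CPM without and 2.93 to 5.15 CPM with CL097, and was not called (log2 0.33, adjusted p = 0.433). Foxm1, the transcription factor that drives late cell cycle genes, was not called (log2 0.26, SE 0.15, adjusted p = 0.163) and had pair differences of -0.11, 0.30 and 0.59.

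In the group of mitotic kinases and their partners 2 of 5 rose (24% of all tested genes) and 3 were not called. The median log2 fold change was 0.71. Birc5 (chromosome 11, 117849251 to 117855743, plus strand), a subunit of the chromosomal passenger complex that holds Aurora B on chromosomes, was at 25.9, 18.2 and 14.7 CPM in unstimulated and 24.4, 44.6 and 64.1 CPM in CL097 libraries. It rose 2.16-fold (log2 1.11, SE 0.35, adjusted p = 0.0240), but the groups overlapped because pair 1 was lower by 0.08. Pair 3 was higher by 2.13, the largest pair difference of any member.

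Aurka (chromosome 2, 172356190 to 172370535, minus strand), the kinase of spindle poles, had 18.6, 12.4 and 10.7 CPM without and 17.4, 24.9 and 29.4 CPM with CL097. It rose 1.73-fold (log2 0.79, SE 0.26, adjusted p = 0.0280), and as for Birc5 the rise came from pairs 2 and 3. Tpx2, which activates Aurora A on the spindle, was at 54.0, 35.8 and 29.9 CPM without and 43.0, 67.9 and 86.0 CPM with CL097 and was not called (log2 0.71, SE 0.29, adjusted p = 0.0632). Plk1, the polo-like kinase, was not called (log2 0.68, adjusted p = 0.0690). Aurkb had a log2 fold change of -0.19 (adjusted p = 0.537) and was the only member of this group not called higher without number 1 (log2 0.24, adjusted p = 0.178).

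None of the 7 genes of the spindle checkpoint and the APC/C was called in either direction with limma's test on 6 libraries, and 1 was higher at an unadjusted p under 0.05, where 32.3% of all tested genes were higher and 31.1% lower. Their median log2 fold change was 0.22. Ube2c, the ubiquitin-conjugating enzyme that works with the APC/C, had 22.3, 24.9 and 26.0 CPM in unstimulated libraries and 19.8, 61.0 and 91.6 CPM in CL097 libraries. The CL097 library of number 1 was the lowest of all 6 and the other two CL097 libraries were the highest. Its log2 fold change was 0.98 (SE 0.48, adjusted p = 0.113), and with the replicate number as a block Ube2c was called higher (adjusted p = 0.0327, SE 0.33).

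Ttk, the kinase MPS1 that starts the checkpoint signal, was at 11.1, 6.28 and 6.34 CPM without and 9.54, 10.2 and 13.0 CPM with CL097 (log2 0.51, SE 0.26, adjusted p = 0.125). Bub1, a checkpoint kinase of the kinetochore, was at 23.8, 11.0 and 13.3 CPM without and 16.6, 18.7 and 29.9 CPM with CL097 (log2 0.47, SE 0.32, adjusted p = 0.237). In both genes pair 1 was lower and pairs 2 and 3 were higher, and the groups overlapped. Bub1b, Mad2l1 and Cdc20 had log2 fold changes of 0.09, 0.02 and 0.15. Mad2l1 and Cdc20 encode the checkpoint protein and the APC/C activator that bind each other. Bub3, whose product also acts in the checkpoint, was higher in all 3 pairs with no overlap, at 103.2 to 124.2 CPM in unstimulated and 126.5 to 135.4 CPM in CL097 libraries. This was a difference of log2 0.22 (SE 0.09, adjusted p = 0.0542), short of both thresholds. With the block the adjusted p of Bub3 in limma was 0.0384, but its log2 fold change was still too small for a call. Its values too were singled out after they were seen. Without number 1, 3 genes of this group were called higher (Ube2c, Ttk and Bub1), against 25.3% of all tested genes.

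Of the 3 centromere genes 1 fell (23.6% of all tested genes) and 2 were not called (median -0.11). Cenpa (chromosome 5, 30666777 to 30674830, plus strand), which marks where the kinetochore assembles, was at 64.9, 54.0 and 56.5 CPM in unstimulated and 17.6, 21.8 and 27.2 CPM in CL097 libraries. It fell by 1.42 on the log2 scale (SE 0.16, adjusted p = 0.000151), which is 2.67-fold lower, and it had the smallest adjusted p of the members. All 3 pairs were lower by more than log2 1 (-1.88, -1.31 and -1.06).

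Cenpf, a large kinetochore protein that accumulates in G2 phase, was at 32.0, 32.0 and 27.2 CPM without and 21.9, 51.8 and 74.1 CPM with CL097 (log2 0.53, SE 0.38, adjusted p = 0.266). Cenpe, the kinesin that carries chromosomes to the spindle equator, was at 44.2, 37.8 and 32.8 CPM without and 24.4, 35.8 and 49.7 CPM with CL097 (log2 -0.11, SE 0.24, adjusted p = 0.708). For both, the CL097 libraries of numbers 1 and 3 lay on either side of all unstimulated libraries.

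Among 5 genes of spindle motors and microtubule binding proteins 2 rose (24% of all tested genes) and 3 were not called (median 0.86). All 5 were called higher without number 1, against 25.3% of all tested genes. Hmmr (chromosome 11, 40701395 to 40733422, minus strand), a microtubule protein of spindle poles, was at 20.0, 14.7 and 15.2 CPM without and 19.0, 43.3 and 51.4 CPM with CL097. It rose 2.11-fold (log2 1.08, SE 0.34, adjusted p = 0.0265) with a difference of -0.08 in pair 1. Kif2c (chromosome 4, 117159639 to 117182639, minus strand), a kinesin that takes microtubules apart at kinetochores, was at 12.0, 6.53 and 7.45 CPM without and 13.8, 18.6 and 20.4 CPM with CL097. It rose 2.07-fold (log2 1.05, SE 0.26, adjusted p = 0.00825) and was higher in all 3 pairs, by 0.20, 1.51 and 1.45.

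Kif4, a chromosome-bound kinesin, was at 21.4, 14.5 and 13.4 CPM without and 15.8, 33.9 and 46.4 CPM with CL097 (log2 0.86, SE 0.37, adjusted p = 0.0798). Kif11, the motor that pushes spindle poles apart, had a log2 fold change of 0.67 (adjusted p = 0.164), and Nusap1 of 0.29 (adjusted p = 0.579). In pair 1 these 3 genes were lower by 0.44, 0.66 and 1.04 on the log2 scale.

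Of 5 genes of the spindle midzone and cytokinesis 2 rose (24% of all tested genes) and 3 were not called (median 0.31). All 5 were called higher without number 1, against 25.3% of all tested genes. Prc1 (chromosome 7, 80294450 to 80316259, plus strand) crosslinks midzone microtubules. It was at 35.3, 28.7 and 25.8 CPM without and 35.9, 82.9 and 100.3 CPM with CL097, a 2.25-fold rise (log2 1.17, SE 0.35, adjusted p = 0.0191). Pair 1 was nearly flat at 0.03, against 1.53 and 1.96 in pairs 2 and 3, so the groups were apart by less than 1 CPM.

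Ect2 (chromosome 3, 27097222 to 27153878, minus strand), the exchange factor that activates RhoA for the cleavage furrow, was at 23.1, 15.8 and 18.9 CPM without and 21.5, 37.8 and 44.4 CPM with CL097. It rose 1.73-fold (log2 0.79, SE 0.27, adjusted p = 0.0334). Kif20a, a kinesin of the midzone, was at 30.8, 18.1 and 17.3 CPM without and 23.0, 25.6 and 31.0 CPM with CL097 (log2 0.31, SE 0.23, adjusted p = 0.285). Kif23 and Racgap1, which together form the centralspindlin complex, had log2 fold changes of 0.23 and 0.19 and adjusted p values of 0.424 and 0.460.

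Of 7 genes that act on chromosomes 1 rose (24% of all tested genes) and 6 were not called (median 0.38). Ncaph (chromosome 2, 127103809 to 127133954, minus strand), the kleisin subunit of condensin I, was at 40.9, 31.7 and 28.5 CPM without and 54.3, 58.2 and 78.4 CPM with CL097. It rose 1.89-fold (log2 0.92, SE 0.18, adjusted p = 0.00254), by 0.41, 0.88 and 1.46 in the pairs. The other condensin I subunits were not called. Ncapg was at 28.3, 16.6 and 18.5 CPM without and 23.7, 32.9 and 43.9 CPM with CL097 (log2 0.66, SE 0.27, adjusted p = 0.0626), and Ncapd2 had a log2 fold change of 0.16 and pair differences of -1.09, 0.47 and 1.09. Of the SMC subunits shared by condensins I and II, Smc2 had a log2 fold change of 0.38 (adjusted p = 0.157) and Smc4 of -0.25 (adjusted p = 0.244). Smc4 was at 245 to 247 CPM in all 3 unstimulated libraries, but at 154.6, 213.9 and 267.4 CPM in CL097 libraries 1, 2 and 3.

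Mki67, the gene of the proliferation marker Ki-67, had the widest spread between pairs by its SE. It was at 215.0, 278.4 and 223.2 CPM in unstimulated and 125.4, 657.1 and 918.4 CPM in CL097 libraries. Pair 1 was lower by 0.78 on the log2 scale and pairs 2 and 3 were higher by 1.24 and 2.04. The log2 fold change of 0.83 had an SE of 0.64, the largest of the members, and was not called (adjusted p = 0.292). Without number 1 it was 1.64 (SE 0.16, adjusted p = 7.02e-05). Top2a, which untangles sister chromatids, was at 223.6, 143.8 and 168.3 CPM without and 171.1, 219.0 and 285.2 CPM with CL097 (log2 0.33, SE 0.21, adjusted p = 0.212), with the same split between pairs.

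**Figure D3:**
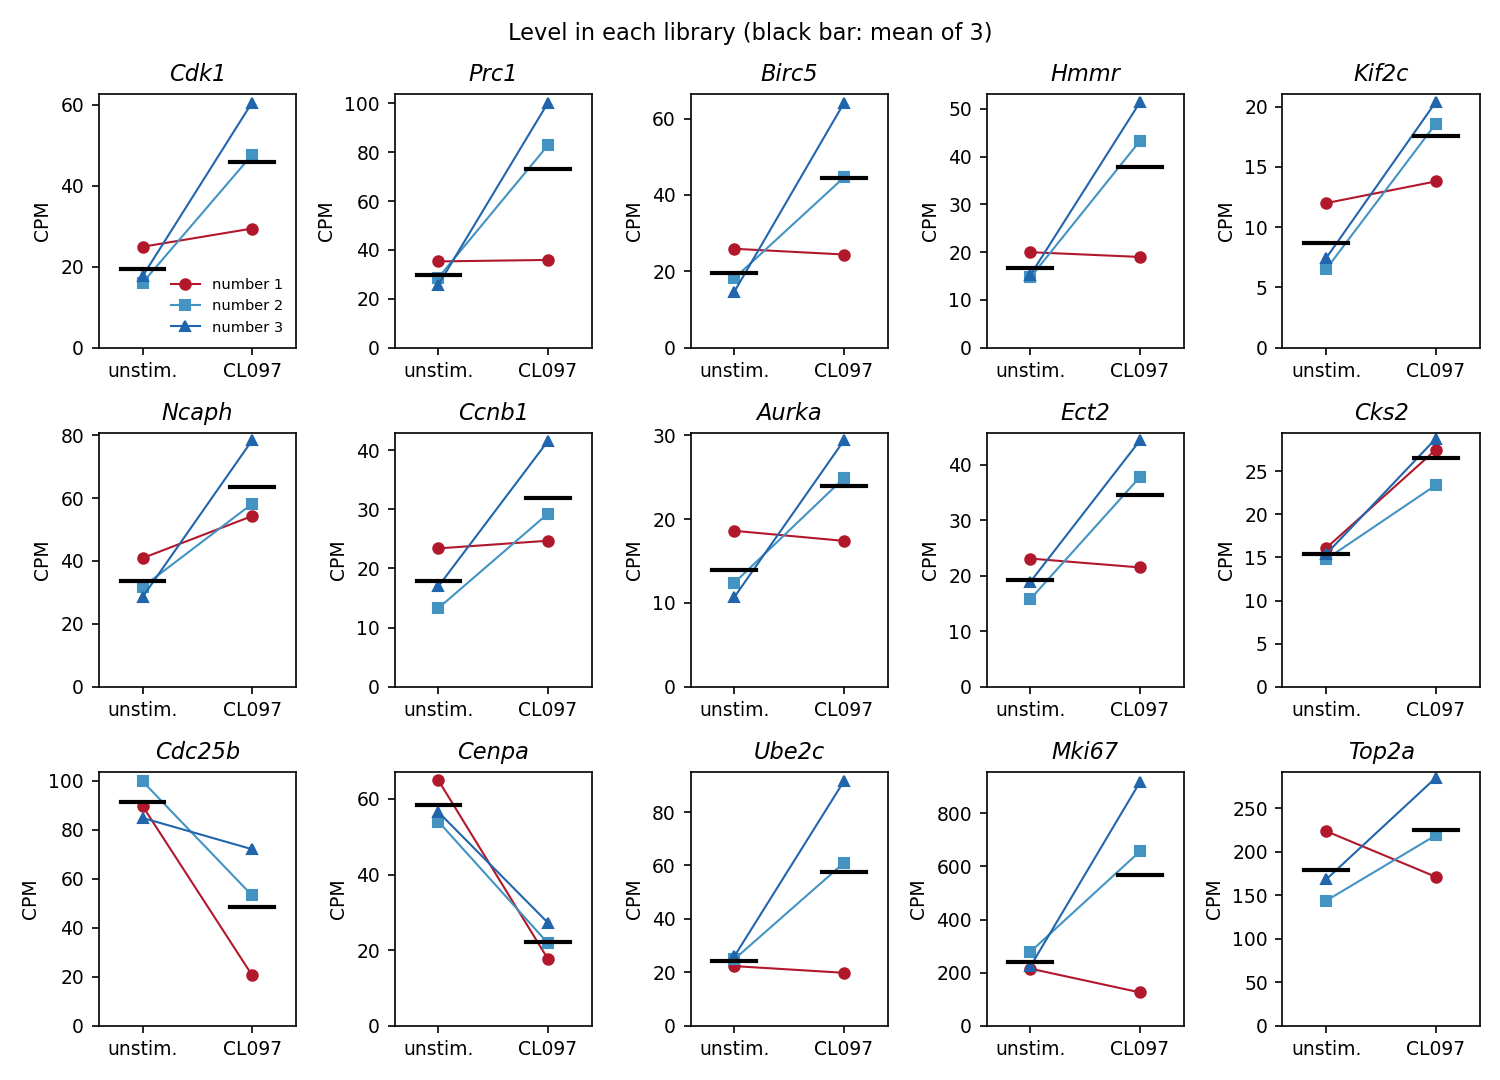
CPM (y axis, from 0) of the 12 called members and of Ube2c, Mki67 and Top2a in each unstimulated and CL097 library, with lines joining libraries of the same number and a black bar at the mean of 3. In each panel where the blue lines of numbers 2 and 3 rise, the red line of number 1 rises less steeply or falls, except for Cks2, and all 3 lines fall for Cenpa and Cdc25b.

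Compared per length, levels in unstimulated cells ran from 0.630 CPM per kb of annotated exon for Cdc25c to 47.3 for Smc4, with a median of 6.74. After Smc4 came Cdc25b (24.6), Mki67 (23.7), Cks2 (22.3) and Top2a (19.8). Cdk1 stood at 3.95 and Cenpa at 9.97 CPM per kb before CL097, and at 9.29 and 3.79 CPM per kb after it. The exon length is the union of all annotated transcripts of a gene, so a value per kb is low where long transcripts are not used. The members lie on 15 chromosomes, 8 of them on chromosome 2.

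What the promoters of these genes share was read from RefSeq sequences of GRCm38.p6, each 250 bases before to 50 after a start site. Windows were at hand for 33 of the 40 members, and Ccna2, Cdc25c, Foxm1, Aurkb, Tpx2, Kif20a and Smc4 had none. TTTGAA or TTCGAA, on either strand, was taken as the core letters of the CHR. Other forms of the CHR were not searched. TTTGAA or TTCGAA was found in 26 of the 33 (78.8%), against 20.2% of 17491 protein-coding genes and 17.6% of their 21262 windows. The core of the CCAAT box, CCAAT or ATTGG, was found in 28 (84.8%), against 42.3% of coding genes and 38.2% of windows. Both occurred together in 25 (75.8%), against 8.22% of genes and 7.11% of windows. Matches that overlapped each other were each kept, and TTCGAA reads the same on both strands. These shares describe the windows and carry no test.

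The promoters of 3 genes that rose in all pairs (Cdk1, Prc1 and Ccnb1) and of the 2 that fell in all pairs (Cenpa and Cdc25b) are shown to compare these elements between genes that went opposite ways. Each runs 5′ to 3′ from 150 bases before to 30 after the start site, with CHR and CCAAT core letters on either strand in capitals.
Cdk1, chr10:69352883-69353062, minus strand: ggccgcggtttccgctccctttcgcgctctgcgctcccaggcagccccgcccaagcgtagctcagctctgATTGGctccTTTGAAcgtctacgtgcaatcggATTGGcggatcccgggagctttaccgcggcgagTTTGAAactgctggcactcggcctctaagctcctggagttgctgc
Prc1, chr7:80294301-80294480, plus strand: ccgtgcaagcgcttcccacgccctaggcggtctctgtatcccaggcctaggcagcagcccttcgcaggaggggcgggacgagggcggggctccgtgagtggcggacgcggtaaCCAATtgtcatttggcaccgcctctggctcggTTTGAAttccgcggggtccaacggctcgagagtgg
Ccnb1, chr13:100786457-100786636, minus strand: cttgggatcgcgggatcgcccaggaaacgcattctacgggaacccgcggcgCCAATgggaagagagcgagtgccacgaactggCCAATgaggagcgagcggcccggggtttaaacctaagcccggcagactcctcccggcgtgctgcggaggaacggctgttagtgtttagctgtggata
Cenpa, chr5:30666736-30666915, plus strand: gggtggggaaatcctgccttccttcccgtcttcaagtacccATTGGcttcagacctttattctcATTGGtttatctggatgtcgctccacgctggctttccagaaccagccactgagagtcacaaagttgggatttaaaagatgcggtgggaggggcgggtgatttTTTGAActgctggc
Cdc25b, chr2:131186798-131186977, plus strand: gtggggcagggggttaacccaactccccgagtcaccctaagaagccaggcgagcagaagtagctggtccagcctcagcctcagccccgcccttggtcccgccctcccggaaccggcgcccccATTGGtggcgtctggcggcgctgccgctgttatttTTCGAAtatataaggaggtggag

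The promoter of Cdk1 held TTTGAA from positions -71 and -15 and CCAAT cores from -208 (outside the stretch shown), -80 and -48. Prc1 held TTTGAA from -5 with a CCAAT core from -37. Cenpa, which fell, held TTTGAA from 17 and CCAAT cores from -109 and -86, and Cdc25b held TTCGAA from 8 and a CCAAT core from -28. Ccnb1, which rose, held CCAAT cores from -99 and -67 and neither TTTGAA nor TTCGAA in this window. Of the 7 members higher in all pairs 4 had TTTGAA or TTCGAA and 3 (Ccnb1, Cks2 and Ncaph) had neither. Of the 23 members with a window among the 29 with the split between pairs, 20 had TTTGAA or TTCGAA. The median log2 fold change was 0.52 in the 26 genes with TTTGAA or TTCGAA and 0.78 in the 7 without. Their ranges of -1.42 to 1.20 and -0.11 to 1.11 overlapped. A CHR of another form is counted here as absent.

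Other genes of the cell cycle were read from lists of known members. Counts of calls with 6 libraries in these lists stand against 24% of all tested genes called higher and 23.6% called lower. DNA replication genes, which act before mitosis, were called higher by limma for 19 of 29 and lower for 0 (also 0 at an unadjusted p under 0.05), with a median log2 fold change of 0.84. Their medians in pairs 1, 2 and 3 were 0.14, 1.03 and 1.24, so pair 1 was again the lowest, and 10 of 29 were lower in pair 1 and higher in pairs 2 and 3. As in the members, the difference was mostly lowest in pair 1 (28 of 29) and highest in pair 3 (27 of 29). Cdc6, which loads the replicative helicase, rose 6.37-fold (log2 2.67, SE 0.57, adjusted p = 0.00431), from 7.44, 6.18 and 7.61 to 15.7, 58.5 and 98.4 CPM. Tyms, thymidylate synthase, rose 4.94-fold to 31.9, 34.4 and 38.8 CPM. Without number 1, 25 of the 29 were called higher, against 25.3% of all tested genes.

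Of 34 tested genes of the kinetochore beyond the members, 13 rose and 2 fell (median 0.58). Without number 1, 20 of these were called higher, against 25.3% of all tested genes. In the 34 genes the difference was lowest in pair 1 for 28 and highest in pair 3 for 29. The outer kinetochore gene Nsl1 rose 2.78-fold, with 4.52 ± 1.48 and 12.9 ± 5.17 CPM (mean ± SD, n = 3). Ndc80, which binds the microtubule, fell by 1.15 on the log2 scale (SE 0.20, adjusted p = 0.00144), from 27.3 ± 1.35 to 12.6 ± 3.29 CPM. The 3 remaining condensin genes were not called by limma (1 higher at an unadjusted p under 0.05, 1 called higher with the block). All were lower in pair 1 and higher in pairs 2 and 3. Without number 1, 2 of them were called higher, against 25.3% of all tested genes. Genes of the APC/C and its partners gave 4 higher and 3 lower of 17 (median 0.10), near the 24% and 23.6% of all tested genes. The largest were Cdc16 (log2 0.92, SE 0.11) and Ube2s (log2 0.88, SE 0.11). Cohesin genes gave 4 higher and 3 lower of 15 tested (median 0.04), also near these shares. The largest were Esco2 (log2 1.00, SE 0.30) and Cdca5 (log2 0.88, SE 0.22), both needed for cohesion in S phase.

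Centrosome genes gave 0 higher and 3 lower of 18 by limma (median 0.10), with 6 higher and 6 lower at an unadjusted p under 0.05, close to the shares of all tested genes. They gave 2 higher and 4 lower with the block (25.9% and 25.8% of all tested genes). Without number 1 they gave 3 higher and 6 lower (25.3% and 25.1% of all tested genes). Pcnt and Tubgcp5, which anchor and form the microtubule-nucleating complex, were 1.67-fold and 1.59-fold lower. Tubulin genes and Stmn1 gave 1 higher and 2 lower of 9 (median 0.01), with Tuba1a 2.87-fold and Tubb2a 2.26-fold lower. Without number 1 this list gave 3 higher and 3 lower, against 25.3% and 25.1% of all tested genes. Tubulin genes resemble each other, so their values depend on how shared reads were counted. Of the Greatwall and PP2A genes, which set phosphatase activity in mitosis, 2 of 7 rose (median 0.20), Arpp19 by log2 1.33 (SE 0.07) and Ppp2r2a by log2 0.54 (SE 0.07).

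Of 13 DREAM and MYB genes 4 rose and 2 fell (median -0.05). With the block 3 were called lower (25.8% of all tested genes), and 1 was without number 1 (25.1%). The difference was lowest in pair 1 for 9 of the 13 (3791 of all 11844 tested genes). Among the 9 was Tfdp2, a partner of E2F factors (-2.45, -0.62 and -0.28 in pairs 1, 2 and 3, named after its values were seen). Tfdp2 was called lower with the block (adjusted p = 0.0302) and not without it (adjusted p = 0.248). Mybl2, which encodes B-MYB, rose 6.68-fold (log2 2.74, SE 0.15, adjusted p = 2.99e-06), by 2.35, 2.95 and 2.92 in pairs 1, 2 and 3. Rbl2, the p130 pocket protein of the repressing complex, was 3.92-fold lower (log2 -1.97, SE 0.10), with pair differences of -2.18, -1.77 and -1.97. Among 12 genes that restrain G2 and mitosis or oppose proliferation 4 rose and 5 fell (median 0.04). Ccng2 was 7.61-fold lower, from 180.5 ± 23.2 to 24.4 ± 7.41 CPM, while Gadd45b, a stress-induced gene, rose 6.22-fold from 64.2 ± 11.8 to 395.0 ± 1.67 CPM. Of 9 genes of cyclin D, CDK4/6 and the G1 switch 4 rose and 2 fell (median 0.17). Myc, a transcription factor induced early in activation, rose 6.67-fold, by 2.54, 2.92 and 2.75 on the log2 scale in the pairs. Cdk6, a kinase of the G1 phase, rose 4.94-fold, by 2.43, 2.15 and 2.34.

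**Figure D4:**
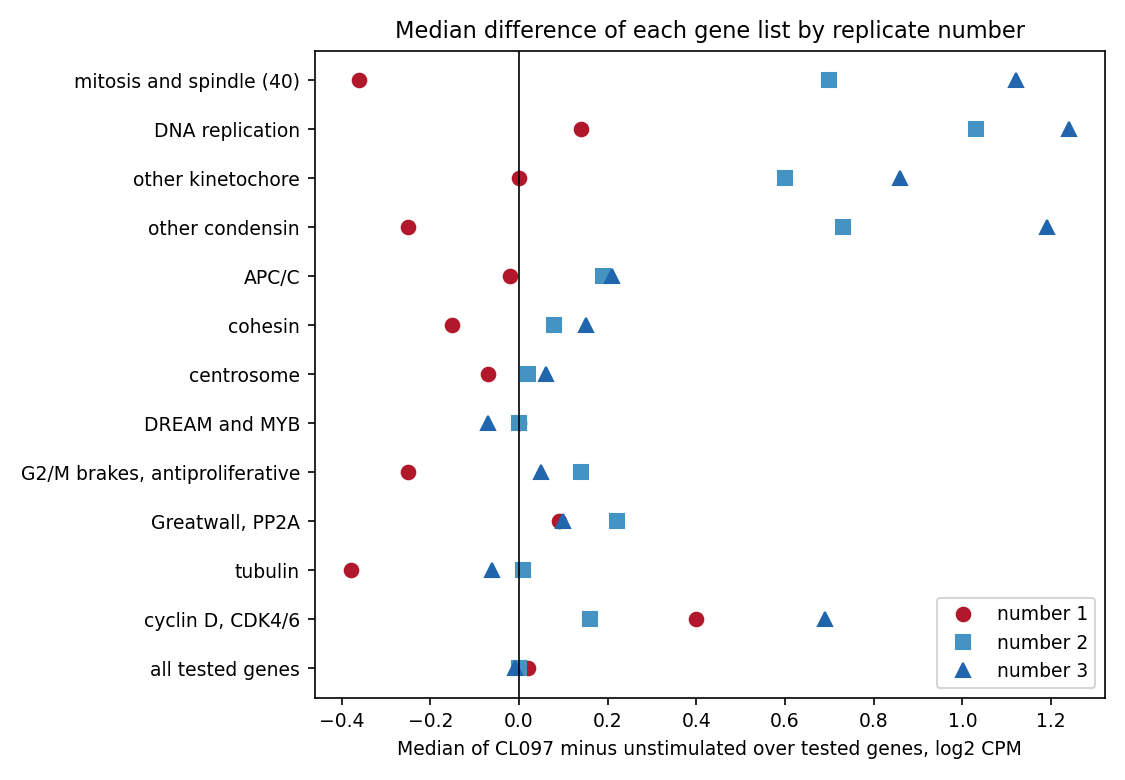
Median over the tested genes of each list of the difference CL097 minus unstimulated in log2 CPM (x axis), for numbers 1 (red circles), 2 (blue squares) and 3 (blue triangles). Number 1 lies well left of numbers 2 and 3 for mitosis and spindle genes (-0.36 against 0.70 and 1.12), DNA replication and other condensin and kinetochore genes, and the 3 numbers lie close together for all tested genes.

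Marker sums of erythroid cells, monocytes and macrophages, neutrophils and plasma cells rose from number 1 to number 3 in both conditions. T cell sums were highest in number 1, and NK sums had no common order. The 7 B cell markers in the files summed to 6118 to 7007 CPM in unstimulated and 2529 to 3035 CPM in CL097 libraries, and 5 of them fell. Erythroid markers, 14 of 17 of which were in the files, summed to 53.0 CPM in number 1 against 1055 and 1213 CPM in numbers 2 and 3 of the unstimulated libraries. After CL097 they summed to 87.9 CPM in number 1 and to 1932 and 3227 CPM in numbers 2 and 3. Over the 12 tested markers the pair differences had medians of 0.95, 1.38 and 1.82. Of these markers 9 were higher in all 3 pairs (39.7% of all tested genes). Ermap and Tspo2 were lower in pair 1 (-1.08 and -0.32), and Alas2 was lower in pairs 2 and 3 (-0.29 and -0.12). The log2 fold change of the list had a median of 1.35 with 0 called by limma in either direction (0 at an unadjusted p under 0.05). With the block 9 were called higher (25.9% of all tested genes), and 11 were without number 1 (25.3%). Klf1 and Gata1 are transcription factors of nucleated red cell precursors. Klf1 was at 0.549, 7.44 and 5.76 CPM in unstimulated and 0.847, 22.2 and 26.6 CPM in CL097 libraries 1, 2 and 3. Gata1 was at 0.398, 3.93 and 1.74 CPM without and 1.30, 14.5 and 11.9 CPM with CL097. Hba-a1 and Hba-a2 stood at the lowest deposited value in all 6 libraries.

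The sum over the 40 mitosis and spindle genes was 2249, 1850 and 1804 CPM in unstimulated and 1604, 2873 and 3775 CPM in CL097 libraries 1, 2 and 3, a ratio of 0.713, 1.55 and 2.09 in the pairs. The erythroid sum had ratios of 1.66, 1.83 and 2.66. After CL097 the order of the libraries was the same for both sums, lowest in number 1 and highest in number 3, while in unstimulated libraries the erythroid sum was lowest and the sum of members highest in number 1. The part of erythroid cells in the result was not tested. In bulk libraries, fewer cells of a type and less RNA per cell cannot be told apart. Monocyte and macrophage markers, 10 of 11 in the files, summed to 153.0 to 654.0 CPM in unstimulated and 109.5 to 390.9 CPM in CL097 libraries, with number 1 lowest in both, and 0 of 10 were called by limma (1 lower at an unadjusted p under 0.05, 5 called lower with the block). Plasma cell markers summed to 937.4 to 1026 CPM without and 2093 to 2305 CPM with CL097, with 1 of 5 tested called higher and 3 lower. The higher sum was that of Irf4, which activated B cells also express (575.2 to 635.6 CPM without and 1946 to 2144 CPM with CL097), while Sdc1, Xbp1 and Mzb1 fell. T cell markers summed to 46.8 to 69.3 CPM without and 50.3 to 92.5 CPM with CL097, most of it Lck (43.4 to 67.2 and 45.1 to 88.3 CPM), with 2 of 4 tested called higher (Cd8a and Cd8b1, at most 2.19 CPM), and Cd3e was under 0.5 CPM in every library. Neutrophil markers summed to at most 64.5 CPM, with 0 of 7 called (0 at an unadjusted p under 0.05, 4 called lower with the block), and NK markers to at most 6.46 CPM, with 1 of 3 called lower. The part of these cells was not tested either.

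**Figure D5:**
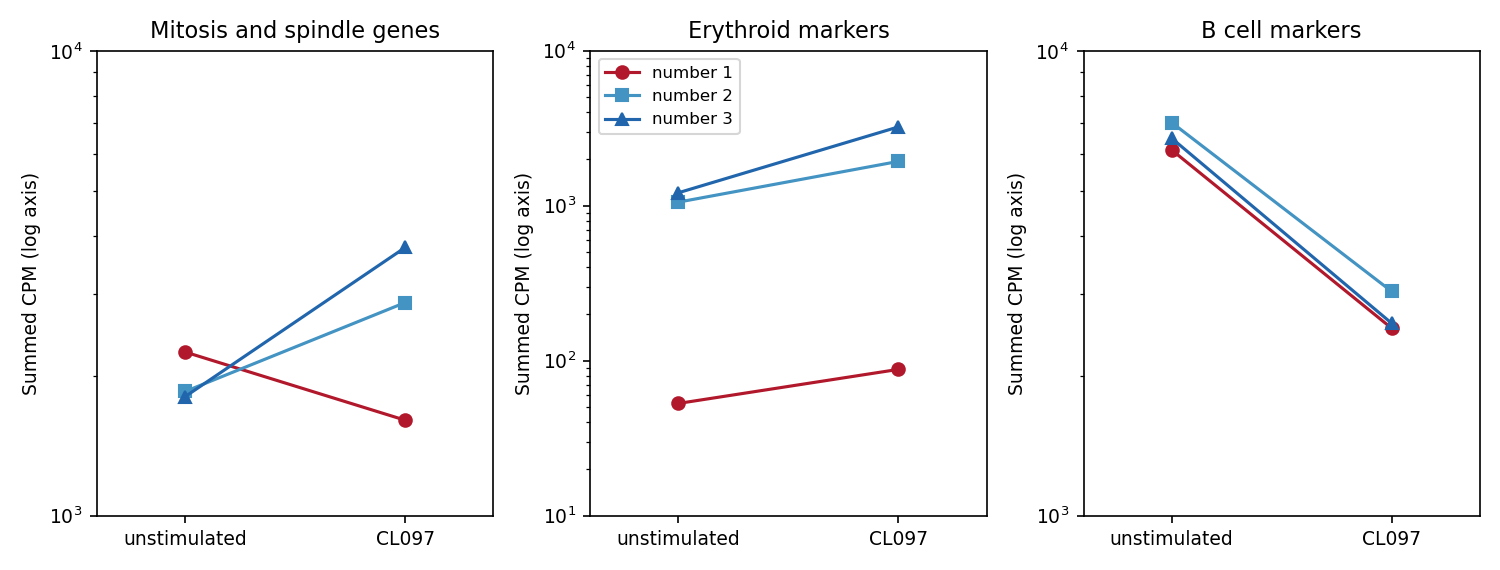
Summed CPM (y axis, log scale) of the 40 mitosis and spindle genes, of erythroid markers and of B cell markers in unstimulated and CL097 libraries, with lines joining libraries of the same number. The member sum falls in number 1 (2249 to 1604 CPM) and rises in numbers 2 and 3, the erythroid sum is lowest in number 1 in both conditions, and the B cell sum falls alike in all 3 numbers.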

How the data were processed

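RNA-seq values of 6 libraries were analysed, 3 unstimulated and 3 CL097. Per the submitters' processing notes reads were trimmed with Trim Galore 0.6.5, aligned with STAR 2.6.1a to mm10 and counted per gene with featureCounts (Subread 2.0.1). The authors normalized the counts by voom with quantile normalization in limma and deposited log2 CPM, 1 file per library. Quantile normalization is meant to give all libraries the same distribution and hides any change in total RNA per cell. The deposited values came close to this but were not identical in distribution, with sums of 991009 to 999204 CPM per library. For the counting, annotation and strand setting were not given in the sources used here, and reads of overlapping antisense genes cannot be told apart. Raw counts were not used here, so depth is unknown and no counting interval is given. Each library had 10906 to 10997 genes of at least 1 CPM.

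The test covered 11844 genes that reached 0.5 CPM (-1 on the log2 scale) in 3 or more libraries. A linear model with the condition as its only term was fitted to the deposited log2 values in limma 3.58.1 (R 4.3.3), with moderated variances and a mean-variance trend, and no pseudocount. A call needed a p under 0.05 after Benjamini-Hochberg adjustment over all tested genes and a log2 fold change over 0.5 or under -0.5. p-values are two-sided. The script was tested on simulated data. Coordinates and exons are from GENCODE M21 (GRCm38), counted from 1. Libraries of the same number deviated together from their group means, with correlations of 0.568, 0.326 and 0.458 over tested genes. All were above 0.1, so the numbers were taken as pairs for the differences. SEs and p-values leave this pairing out unless the block is named. Between numbers 2 and 3 the correlations were 0.209 and 0.172, also above 0.1, so this limit does not tell number 2 from number 3. Correlations of number 1 with another number ran from -0.485 to -0.347. A shift common to a number would also raise the values within a number.

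The members and lists were chosen with earlier results of these data known. Values in every library were given for up to 3 members per role group with the largest absolute log2 fold change, called members first, and for Cdk1, Ccnb1, Mki67 and Top2a, and up to 2 called genes were named per pathway list. Values of Cks2, Bub3, Ccnb2 and Smc4 were added after they were seen. The genes Cenpu, Wapl, Sgo2a, Fcmr, Hbb-bs, Hbb-bt, Ahsp, Trac, Trbc1, Trbc2, Adgre1 and Jchain were not found under these symbols and are not analysed here. Alternatives were a replicate block, other filters, variance models, scalings, a pseudocount of 1 and leaving out libraries.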

Additional observations from a re-analysis of the deposited data

How the results depend on the processing

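The 6 libraries give 10 members called higher, 2 called lower and a median log2 fold change of 0.49. The count called higher was 2 with no filter on low values, 6 with a robust variance model or when the variance trend was dropped, and 5 with a log2 fold threshold of 1; the count called lower was 1 in the first 3 of these. Leaving out libraries moved the count called higher between 2 and 30 and the count called lower between 1 and 2, and the median between 0.15 (without replicate 3 of both conditions) and 0.96 (without replicate 1 of both). In fits with the block and a number left out, which were chosen after seeing the data, the count called higher was 30 without number 1, 5 without number 2 and 3 without number 3. With the replicate number as a block 11 were higher and 2 lower; Ube2c was the added call, and the block changed no other call among the members. Median scaling, cyclic loess, a pseudocount of 1 and the filter at 2 CPM each gave 10 higher and 2 lower. With cyclic loess 6 members were higher in all pairs and 30 had the split between pairs, in place of 7 and 29. The log2 fold change of Cenpe (-0.11) lay between -0.47 and 0.26 when libraries were left out; it was above 0 without CL097 replicate 1 (0.15) and without number 1 (0.26, with or without the block), and was not called in any of these. Fits without a single library hold unequal numbers in the groups, so a shift common to a number enters them. The cause of these changes was not tested. Depth of the libraries is unknown, and 3 libraries per condition limit the precision.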
